A study of Macaca fascicularis with 16 samples.

Results

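The tumour necrosis factor (TNF) superfamily was followed in blood mononuclear cells after 4 cynomolgus macaques of Mauritian origin received NKTT320. This monoclonal antibody recognises the invariant receptor of iNKT (invariant natural killer T) lymphocytes, which see lipids presented by CD1d. Members were all genes whose symbol begins with TNFRSF (receptors) or TNFSF (ligands), 33 of the 23602 symbols in the count tables: 21 receptors and 12 ligands. Cells of the same animals, named LG04, LG11, LG12 and LG15, were collected before the antibody and 30 minutes, 2 hours and 1 day after it, which gave 16 libraries, 4 at each time. All 4 animals received NKTT320 and no untreated animal was analysed here, so the antibody, the time since the first bleed and repeated bleeding cannot be told apart. The labels give no genotype, age or dose. They name the animal of each library, so the 4 values at a time come from separate animals.

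Ligands of the superfamily are mostly trimeric membrane proteins that can be released by proteases, and they cluster their receptors on the next cell. Receptors with a death domain can start apoptosis, whereas receptors that recruit TRAF adaptors switch on NF-kB and kinase pathways that keep lymphocytes alive or costimulate them, and decoy receptors bind a ligand without a full signal. In blood, myeloid cells are known for making BAFF (TNFSF13B) and APRIL (TNFSF13), B cells for their receptors, and activated T cells for inducible pairs such as CD30 with its ligand CD153 (TNFSF8).

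Libraries held 1417467 to 8582852 counts. Levels are in CPM, counts scaled to 1000000 per library, and 3 counts corresponded to 0.35 to 2.12 CPM depending on the library. Library sizes were corrected with the TMM method, because globin genes of red cells took 0.0253% to 48.7% of the counts. Markers of T cells, B cells, natural killer (NK) cells and monocytes were detected in every library, as were those of neutrophils and platelets, and GP1BB was the only platelet marker of 9 with no count. In the series-wide tables the column named for LG04 at 2 hours holds the values of LG04 at 1 day, while the tables for single animals, used here, hold different values for both. By a chi-square of the counts per gene, the library labelled LG04 at 1 day was nearest to LG15 at 1 day (11.3), while it was at 88.1 from LG04 before the antibody and at 158 from LG04 at 2 hours. This chi-square was taken on raw counts and rises with depth and with differences in globin. LG04 and LG15 at 1 day held 1846011 and 3156626 counts, with 13.6% and 20.8% globin. LG04 before the antibody and at 2 hours held 6362826 and 7230371 counts, with 20.3% and 48.7% globin. These distances are therefore no measure of the animal alone. Of the 16 libraries 4 were nearest to one of another animal, and whether the label of LG04 at 1 day names the right animal was not tested. Fold changes of the named members at 2 hours and 1 day are therefore also given without the 2 libraries labelled LG04 at these times, called the doubted LG04 libraries.

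The 33 members together took 0.0341% to 0.121% of a library's counts, with a median of 0.0553%. LG11 had the highest share at each time, with 0.105% before the antibody and 0.0949%, 0.102% and 0.121% after it. Enough counts for a test were found for 20 members, 13 receptors and 7 ligands. Of the 13 others, 3 had no count in any library. These were TNFRSF11B, the decoy osteoprotegerin, TNFRSF6B, a soluble decoy of Fas ligand, and TNFSF12-TNFSF13, a read-through transcript. The remaining 10 summed to between 6 and 109 counts over all libraries. They were the decoy TRAIL receptor TNFRSF10C, RANK (TNFRSF11A) and its ligand TNFSF11, the TWEAK receptor TNFRSF12A, BCMA (TNFRSF17), GITR (TNFRSF18) and its ligand TNFSF18, OX40 (TNFRSF4), the DR3 ligand TNFSF15, and the 4-1BB ligand TNFSF9. The highest of their values in a library was 7.99 CPM, for TNFRSF10C in LG15 at 2 hours, and they were not tested for change over time.

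**Figure D1:**
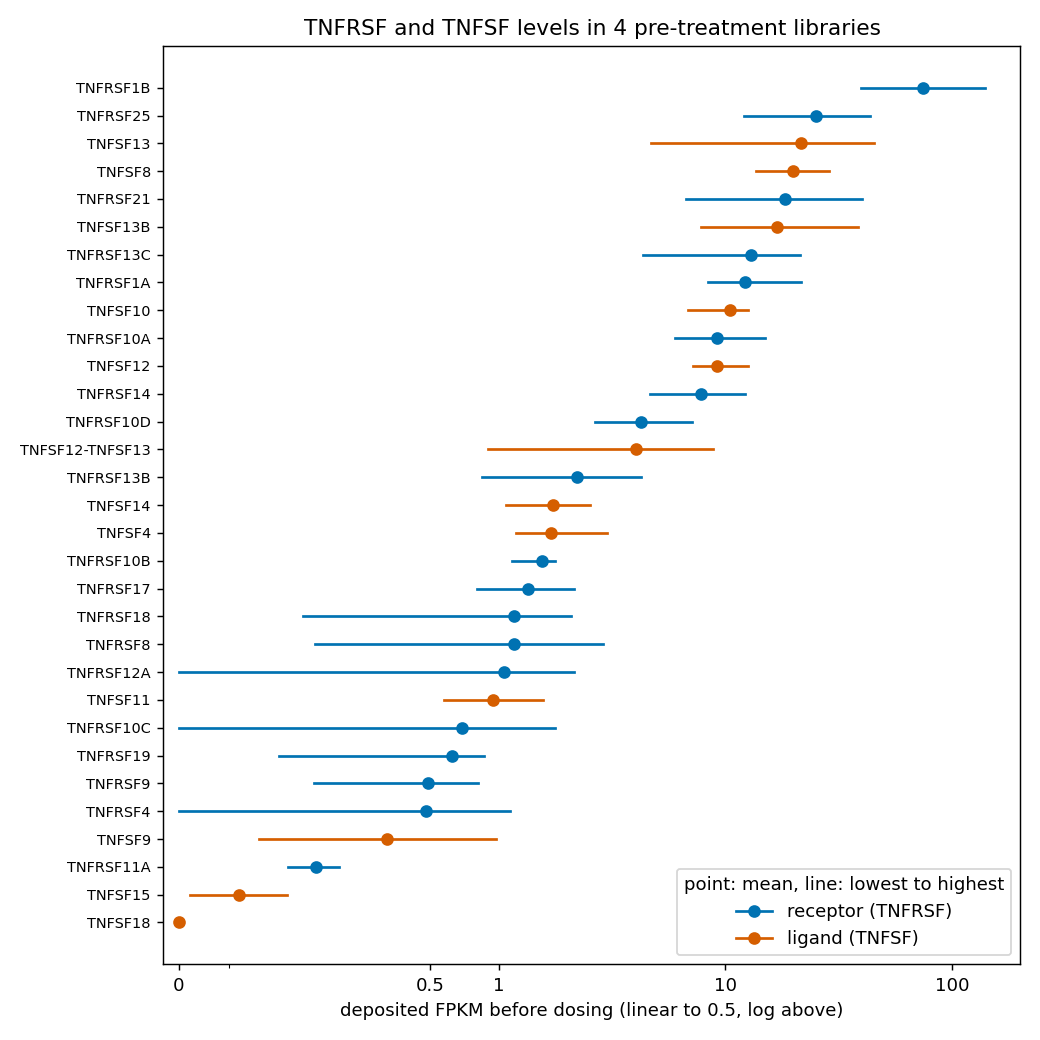
Deposited FPKM of the members in the 4 libraries taken before the antibody (horizontal axis, linear up to 0.5 and logarithmic above). Points are means and lines run from the lowest to the highest animal, for the members whose mean over the 16 libraries was above 0.1 FPKM. TNFRSF1B lies above all other members, at 74.02 ± 45.2 FPKM (mean ± SD, n = 4).

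To rank members against each other, the authors' FPKM values were used, since they account for transcript length. Averaged over the 16 libraries, TNFRSF1B (TNFR2, the TNF receptor of leukocytes without a death domain) had the highest level with 69.1 FPKM. Next came TNFSF13 with 25.2, TNFSF8 with 22.2, TNFRSF25 (DR3, a death-domain receptor of T cells) with 21.6, TNFRSF21 (DR6, a death-domain receptor) with 20.01 and TNFSF13B with 19.7 FPKM. TNFRSF1A (TNFR1, the TNF receptor with a death domain) followed with 13.6 FPKM. At the low end were TNFRSF9 (4-1BB, an activation-induced costimulatory receptor) with 0.355 and TNFSF18 with 0.146 FPKM. The plot of levels before the antibody shows that single animals overlapped for most neighbours in this order.

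One locus ranked very differently on the 2 scales. TNFSF13 was second of the 33 members by mean FPKM and 12th by mean CPM, and 7 of the 10 highest members by FPKM were also among the 10 highest by CPM. TNFSF12 (TWEAK), TNFSF13 and their read-through lie at 1 locus, and the read-through had 0 counts but a median of 6.50 FPKM, with a highest value of 18.3 FPKM. In the RefSeq table of the macaque assembly T2T-MFA8v1.1, used for gene order only, TNFSF12 and TNFSF13 are next to each other with no coding gene between. The sources used here do not say how reads were split among the 3 entries, and counts of TNFSF12 and TNFSF13 are uncertain. The other 5 adjacent pairs of members were TNFSF4 with TNFSF18, TNFRSF1B with TNFRSF8, TNFRSF4 with TNFRSF18, TNFSF8 with TNFSF15, and TNFRSF10B with TNFRSF10C.

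**Figure D2:**
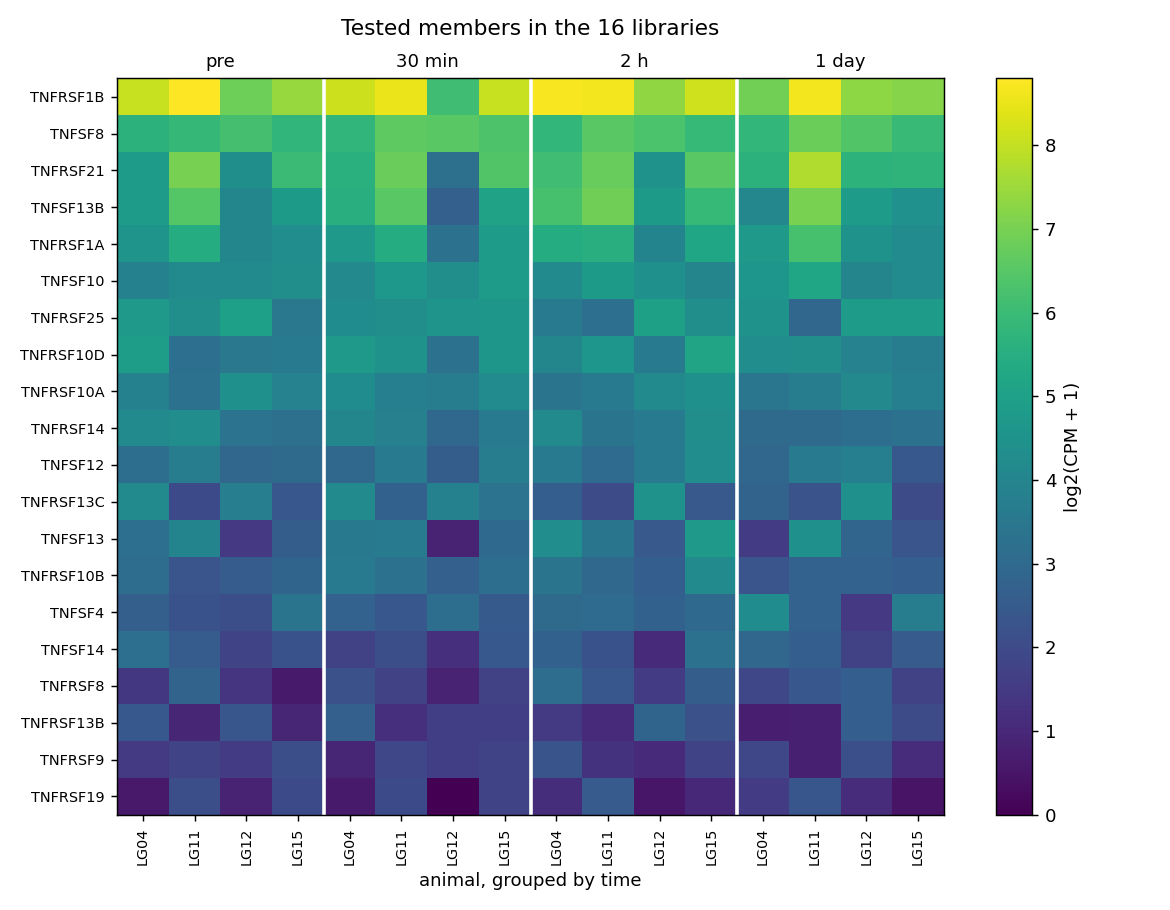
Levels of the 20 tested members (rows) in the 16 libraries (columns, 4 animals at each time), as log2(CPM + 1). TNFRSF1B is the brightest row, and TNFRSF21, TNFSF13B and TNFRSF1A are brighter in LG11 than in LG12 at each time.

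Differences between animals were larger than differences between times for most members. In a split of the variance of log2(CPM + 1), animals accounted for a median of 42.6% over the 20 tested members and times for 11.7%, beside 46.5% and 12.1% over all tested genes. Animals accounted for more than times in 16 of the 20 members, which is 80%, near the 82.4% of all 11545 tested genes. The largest shares between animals were 74.9% for TNFRSF21, 72.1% for TNFRSF1A, 69.5% for TNFRSF13C (the BAFF receptor of B cells) and 67% for TNFSF13B. Times accounted for more than animals in TNFRSF10B, TNFRSF14, TNFRSF8 and TNFSF12. In the map of levels by library, LG11 lay above LG12 at all 4 times for TNFRSF21, TNFSF13B and TNFRSF1A.

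No member passed the test at any time. With edgeR's quasi-likelihood test, with animal as a term and p-values adjusted over 11545 genes, 0 of the 20 members had an adjusted p under 0.05 at 30 minutes, at 2 hours or at 1 day against pre-treatment, and the same test called 0%, 0% and 0.225% of all genes. The smallest adjusted p of a member was 1.00 at 30 minutes, 0.603 at 2 hours and 0.251 at 1 day. An unadjusted p under 0.05 was found for TNFSF8 and TNFSF14 at 30 minutes (2 of 20, 10%, beside 2.53% of all genes), for TNFSF13B and TNFRSF10B at 2 hours (10%, beside 7.43%) and for TNFSF8 and TNFRSF14 at 1 day (10%, beside 13.6%). DESeq2 called 0 members too. In the test for any difference among the 4 times, 0 members were called, beside 0.104% of all genes, and only TNFSF8 of the 20 (5%) had an unadjusted p under 0.05, beside 12.2% of all genes. Without the doubted LG04 libraries an unadjusted p under 0.05 was found for TNFSF8 alone at 30 minutes and at 1 day (5% each, beside 3.06% and 11.3% of all genes), for TNFSF13B, TNFRSF10B and TNFRSF10D at 2 hours (15%, beside 6.65%) and for 0 members over the 4 times (beside 8.28%).

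Between successive times the picture was alike. From 30 minutes to 2 hours edgeR called 0 of 20 members, beside 0% of all genes, with TNFSF13B alone at an unadjusted p under 0.05 (5%, beside 4.6%). From 2 hours to 1 day it called 0 members, beside 0.104% of all genes, with TNFRSF14 and TNFRSF10B at an unadjusted p under 0.05 (10%, beside 12.6%). Without the doubted LG04 libraries 0 members had one in either comparison, beside 3.73% and 9.06% of all genes. These comparisons share libraries with those against pre-treatment and are not independent of them.

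Directions shared by all 4 animals were also counted. At 30 minutes TNFSF8, TNFSF10 and TNFRSF10B were higher in 4 of 4 animals (15% of the 20, beside 6.21% of all genes) and 0 were lower in all 4 (beside 4.42%). At 2 hours TNFSF8, TNFSF13B and TNFRSF10B were higher in all 4 (15%, beside 8.06%) and 0 were lower (beside 6.52%). At 1 day TNFSF8 alone was higher in all 4 (5%, beside 9.83%) and 0 were lower (beside 9.09%). From 30 minutes to 2 hours TNFRSF1A, TNFRSF1B, TNFRSF8 and TNFSF13B were higher in all 4 animals (20%, beside 8.54%) and 0 were lower (beside 8.06%). From 2 hours to 1 day 0 were higher (beside 11.3%), and TNFRSF13B, TNFRSF14 and TNFRSF1B were lower in all 4 (15%, beside 9.16%).

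These counts used TMM-scaled CPM and differed on other scalings. With plain library totals 0, 1 and 0 members were higher in all 4 animals at 30 minutes, 2 hours and 1 day against pre-treatment, and 1, 0 and 2 were lower. With globin genes left out of the totals 2, 1 and 0 were higher and 1, 0 and 1 lower. Plain library totals also moved the median log2 difference of all genes to -0.14, -0.24 and -0.19 at these times. The shares of all genes on these other scalings were not counted, so these counts are not read as a result about the members. Groups that did not overlap were found for 0 members at 30 minutes, 2 hours and 1 day against pre-treatment (beside 0.797%, 1.77% and 2.94% of all genes), for 0 from 30 minutes to 2 hours (beside 0.719%) and for TNFRSF14 from 2 hours to 1 day (5%, beside 2.04%).

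**Figure D3:**
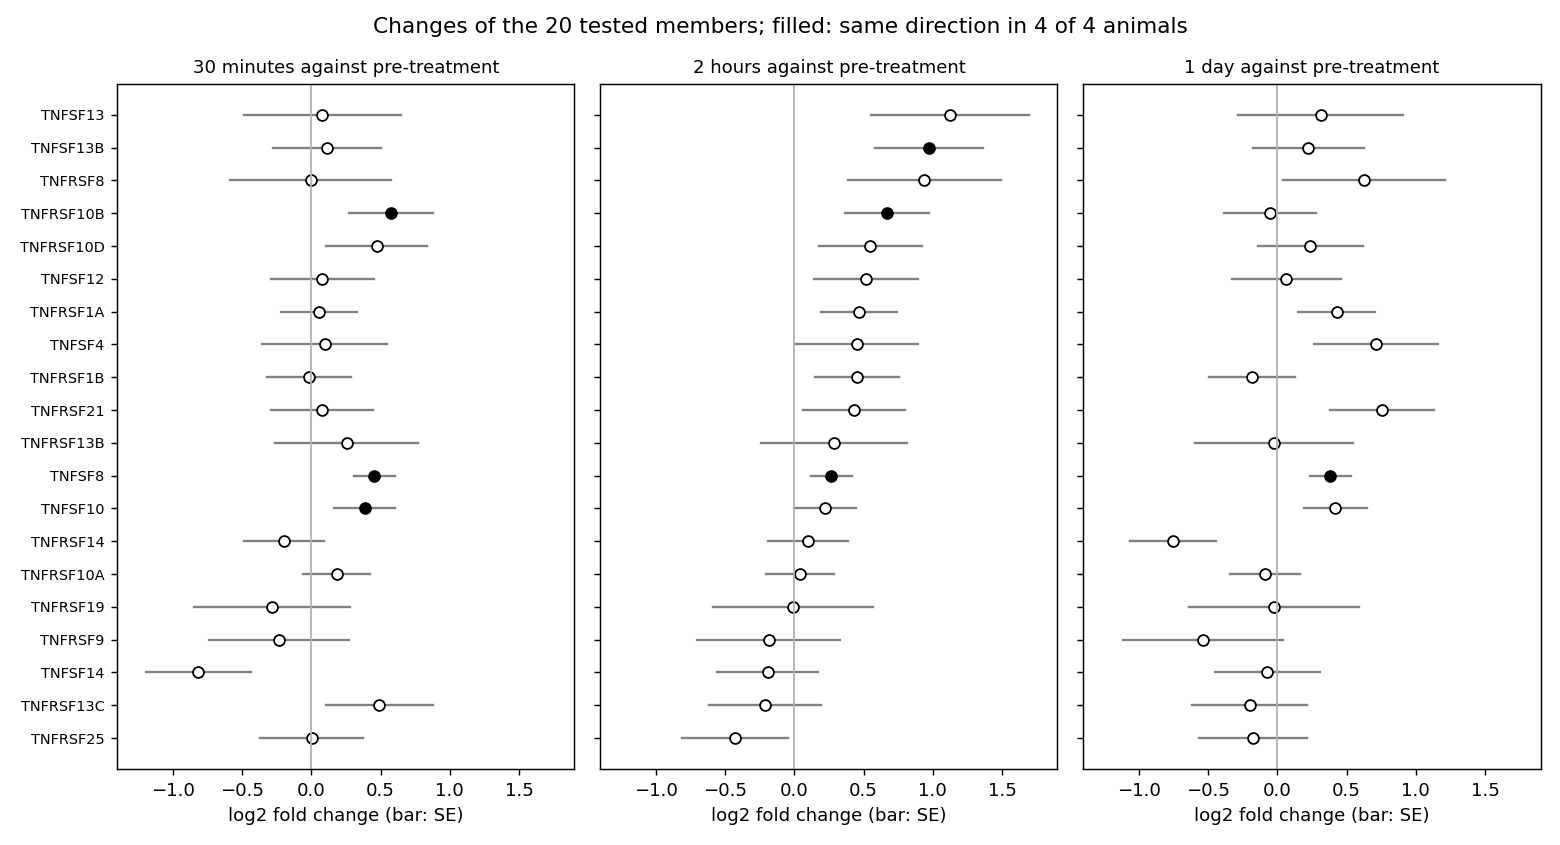
Log2 fold change against pre-treatment (horizontal axis) of the 20 tested members at 30 minutes, 2 hours and 1 day, with bars of 1 SE. Filled points had the same direction in 4 of 4 animals on TMM-scaled CPM; no member passed an adjusted p of 0.05, and 15 of 20 points lie right of 0 at 2 hours (by the mean over animals 15 with TMM and 11 with plain library totals).

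Fitted values at 2 hours were above 0 for 15 of 20 members (75%, beside 52.7% of all tested genes), with a median log2 fold change of 0.36, beside 0.02 over all tested genes. Receptors had a median of 0.29 and ligands of 0.46. The fitted median of the members was 0.08 at 30 minutes, with 14 of 20 above 0 (70%, beside 54% of all genes), and 0.02 at 1 day, with 10 of 20 above 0 (beside 50%). From 2 hours to 1 day it was -0.22, with 13 of 20 below 0.

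These counts depended on the scaling. As the mean of log2(CPM + 1) over animals, 15 members were higher at 2 hours than before with TMM, 11 with plain library totals and 14 with globin genes left out of the totals. At 30 minutes 11, 5 and 9 were higher, with medians of 0.05, -0.11 and -0.02, and at 1 day 9, 7 and 7. Scaling to plain library totals moved the median of all genes at 2 hours to -0.24, and the members' median lay above that of all genes by 0.34. With TMM this distance was 0.30 and with globin genes left out of the totals 0.30. At 30 minutes the distance was 0.03, 0.04 and 0.03. Without the 2 doubted LG04 libraries the members' fitted median was 0.29 at 2 hours and 0.24 at 1 day. By animal, 14, 11, 15 and 16 of the 20 were higher at 2 hours than before in LG04, LG11, LG12 and LG15. The median differences in log2(CPM + 1) were 0.34, 0.05, 0.16 and 0.85 in these animals. The largest was thus in LG15, whose library at 2 hours held 1890190 counts, and LG11 was near 0. The plot of fold changes shows the values of each member at the 3 times.

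Markers of monocytes were also higher at 2 hours. Their summed level (10 of 10 markers tested, none at 0) was 2176, 2415, 460.2 and 1553 CPM in LG04, LG11, LG12 and LG15 before the antibody. It was 3449.9, 4276, 142 and 2447 CPM at 30 minutes, 5685, 5371, 1142 and 6352 CPM at 2 hours and 1129, 7878, 1375 and 1216 CPM at 1 day. Each of the 4 animals was higher at 2 hours than before, and by the fit 10 of 10 markers were above 0 with a median log2 fold change of 1.54, 7 with an unadjusted p under 0.05 and 0 called by edgeR. Summed T-cell markers, 10 of 10 tested and none at 0, were 1065 to 1275 CPM before and 743 to 1059 CPM at 2 hours. In such bulk samples more cells of a type and more RNA per cell cannot be told apart, and the part of monocytes in the members' values was not tested.

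**Figure D4:**
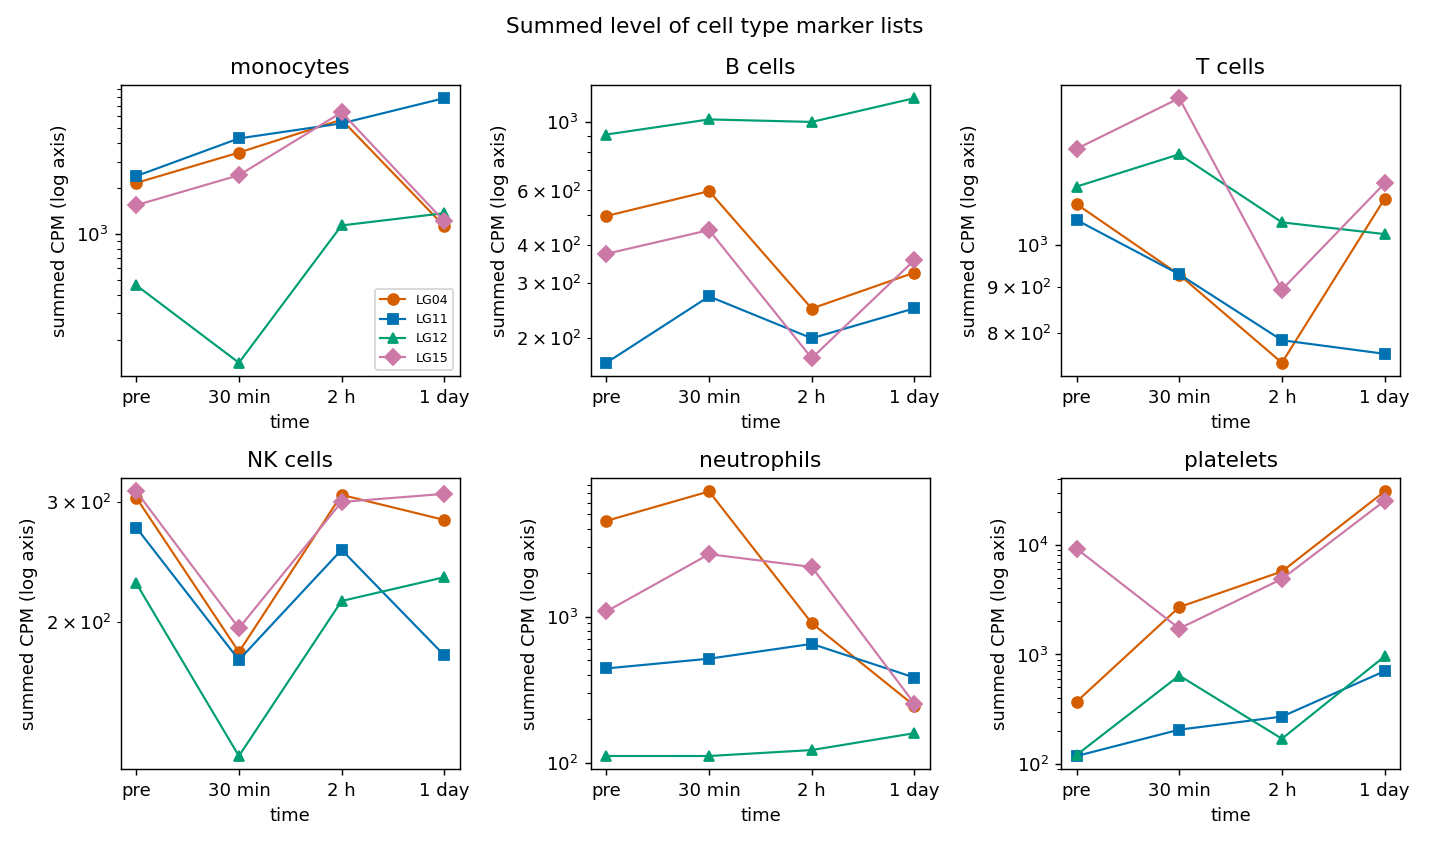
Summed CPM of 6 marker lists by animal at the 4 times (logarithmic vertical axes; times evenly spaced, not to scale). The monocyte sum was higher at 2 hours than before in each animal, LG11 and LG12 were above their starting values at 1 day with 7878 and 1375 CPM while LG04 and LG15 were below, and LG12 had the highest B-cell sum at each time.

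Among ligands of lymphocyte survival, TNFSF13B (Entrez gene 10673) encodes BAFF, which B cells need to survive. It measured 27.7, 88.1, 15.5 and 26.8 CPM in LG04, LG11, LG12 and LG15 before the antibody, and 46.3, 91.97, 5.53 and 32.3 CPM at 30 minutes. At 2 hours it measured 75.3, 119, 27.1 and 58.95 CPM, and at 1 day 15.8, 129.8, 27.9 and 20.9 CPM. LG11 was highest at every time, each animal was higher at 2 hours than before, and the groups overlapped. The log2 fold change at 2 hours was 0.97 ± 0.39 (SE), with edgeR's unadjusted p 0.0263 and adjusted p 0.603. All 4 animals were higher on each of the 3 scalings, and the fold change was 0.90 ± 0.36 without the doubted LG04 libraries. At 1 day LG11 and LG12 were above their own starting values while LG04 and LG15 were below theirs. The summed monocyte markers at 1 day were at 7878 and 1375 CPM in LG11 and LG12 (2415 and 460.2 before). They were at 1129 and 1216 CPM in LG04 and LG15 (2176 and 1553 before). Their part in the values of TNFSF13B was not tested. LG04 at 1 day belongs to the doubted LG04 libraries, and whether it and LG15 at 1 day are separate animals was not tested.

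TNFSF13 (Entrez gene 8741) encodes APRIL, which supports plasma cells. It measured 8.21, 14.6, 1.75 and 4.99 CPM before and 10.9, 11.2, 0.850 and 7.07 CPM at 30 minutes, in the same order of animals. It then measured 18.7, 9.77, 4.55 and 25.5 CPM at 2 hours and 1.97, 20.6, 6.38 and 3.95 CPM at 1 day. The values of LG12 at 30 minutes and of LG04 at 1 day stood for 3 counts or fewer. Values at 2 hours were higher than before in 3 animals and lower in LG11, and the groups overlapped. The log2 fold change at 2 hours was 1.13 ± 0.57 (edgeR's adjusted p 0.689), the largest of the 20 members at that time, and 1.13 ± 0.58 without the doubted LG04 libraries. Leaving out 1 animal at a time moved it between 0.58 and 1.63. At 1 day LG11 and LG12 were above their starting values and LG04 and LG15 below, as for TNFSF13B. The same doubt holds for LG04 at 1 day. On the authors' FPKM the same 3 animals were higher, with 18.5, 45.3, 4.70 and 17.4 FPKM before and 29.1, 41.8, 8.59 and 33.7 FPKM at 2 hours.

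**Figure D5:**
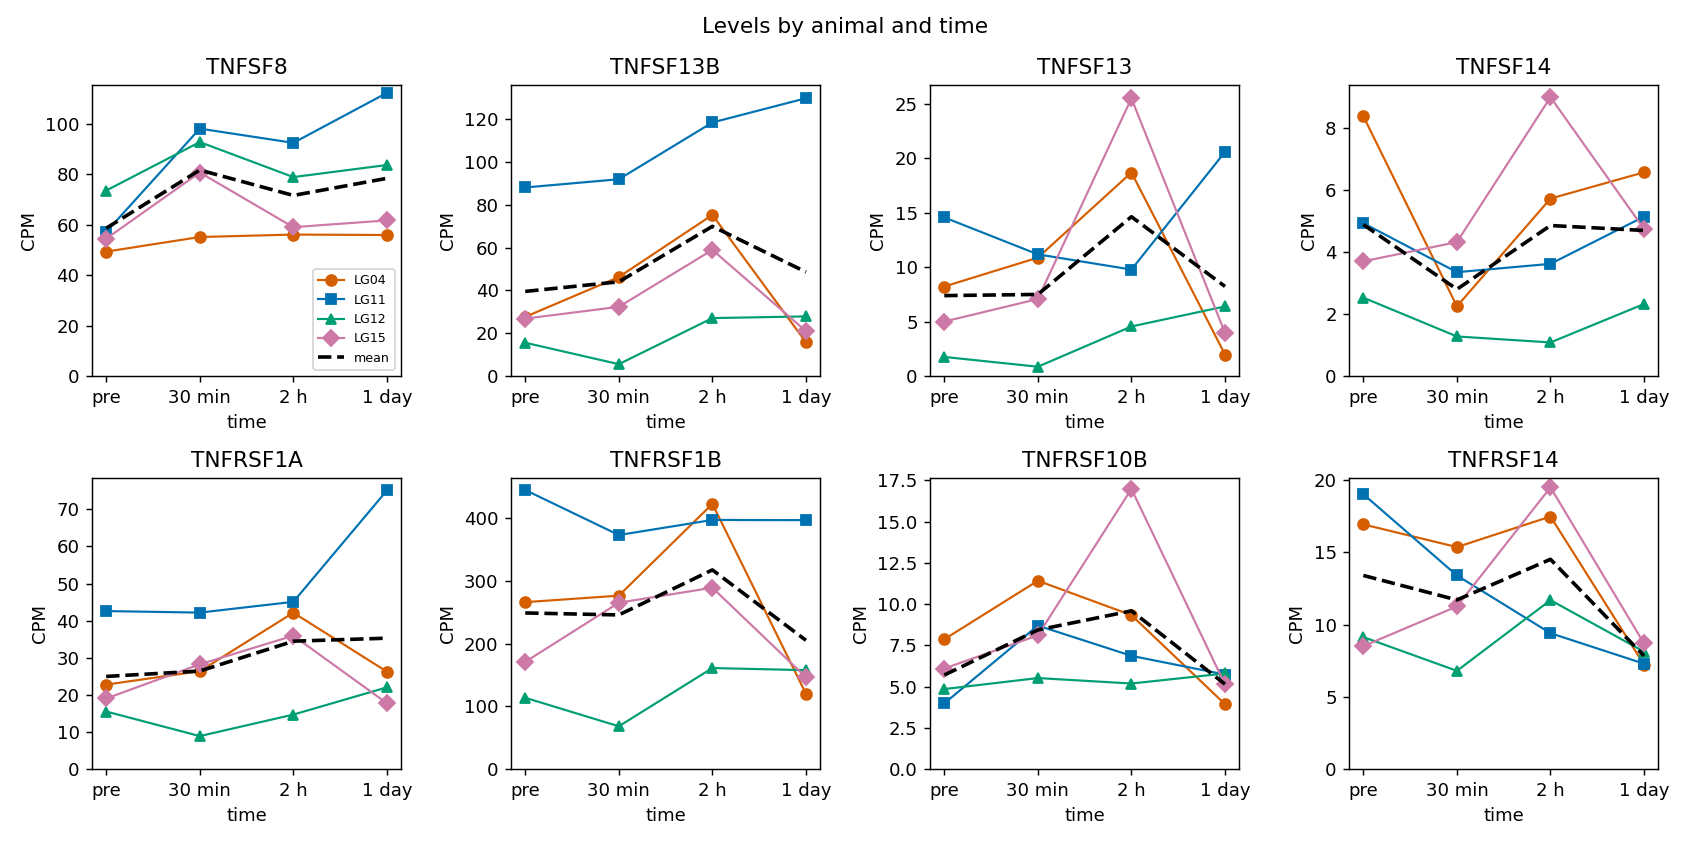
CPM of 8 members (vertical axes from 0) in the 4 animals at the 4 times, evenly spaced and not to scale, with the mean as a dashed line. On this TMM scale TNFSF8 is above its starting value at all later times in each animal (2 to 3 animals on other scalings), TNFSF13B peaks at 2 hours in LG04 and LG15, and the 4 TNFRSF14 values draw together at 1 day between 7.23 and 8.69 CPM.

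Among ligands of T-cell costimulation, TNFSF8 (Entrez gene 944), the CD30 ligand, had the smallest SE of a fold change among the 20 tested members in each of the 5 comparisons between times. It measured 49.3, 57.03, 73.5 and 54.4 CPM before the antibody and 55.1, 98.00, 92.7 and 80.6 CPM at 30 minutes. At 2 hours it measured 56.02, 92.4, 78.8 and 58.95 CPM and at 1 day 55.9, 112, 83.6 and 61.6 CPM. On this TMM scale each animal was above its starting value at each later time, although the groups overlapped. In LG04 the level was 1.12, 1.14 and 1.13 times the starting value at the 3 later times, and in LG11 it was 1.72, 1.62 and 1.97 times.

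The log2 fold change of TNFSF8 was 0.46 ± 0.15 at 30 minutes (edgeR's unadjusted p 0.0083, adjusted p 1.00), 0.27 ± 0.15 at 2 hours (adjusted p 0.714) and 0.38 ± 0.15 at 1 day (adjusted p 0.251). Without the doubted LG04 libraries the values were 0.25 ± 0.18 at 2 hours and 0.40 ± 0.18 at 1 day. The shared direction depended on the scaling. With plain library totals, and with totals without globin genes, 3 animals were higher at 30 minutes, 3 at 2 hours and 2 at 1 day, while the mean over animals stayed above that before. Animals accounted for 60.8% of its variance in log2(CPM + 1) and times for 23.5%.

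TNFSF14 (LIGHT, Entrez gene 8740), made by activated T cells, is a ligand of TNFRSF14. It measured 8.38, 4.93, 2.53 and 3.70 CPM before and 2.25, 3.35, 1.28 and 4.32 CPM at 30 minutes. It was lower at 30 minutes in 3 animals and higher in LG15, and the groups overlapped. The value of LG12 at 30 minutes stood for 3 counts. The log2 fold change was -0.82 ± 0.38 (edgeR's unadjusted p 0.0493, adjusted p 1.00). At the later times it measured 5.72, 3.62, 1.08 and 8.99 CPM at 2 hours and 6.57, 5.14, 2.32 and 4.74 CPM at 1 day, with fold changes of -0.19 ± 0.36 and -0.07 ± 0.38 (-0.21 ± 0.45 and -0.11 ± 0.46 without the doubted LG04 libraries). At 30 minutes leaving out 1 animal at a time gave -1.18 to -0.45. TNFSF4, the OX40 ligand, ranged from 1.74 to 18.4 CPM over the 16 libraries, with both extremes at 1 day.

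Summed NK-cell markers, 8 of 8 tested and none at 0, were lowest at 30 minutes, when TNFSF14 was lowest in LG04 and LG11. They were 305, 275, 228 and 311 CPM before and 181, 176, 127 and 196 CPM at 30 minutes, and 7 of the 8 were lower with an unadjusted p under 0.05 while edgeR called 0. Their part in the value of TNFSF14 was not tested.

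TNFSF10 (Entrez gene 8743) encodes TRAIL, which kills cells through death receptors. It measured 13.7, 17.3, 17.3 and 19.4 CPM before and 16.7, 25.00, 19.6 and 27.6 CPM at 30 minutes. Each animal was higher at 30 minutes, by 2 scalings of 3, and with plain library totals 3 animals were; the groups overlapped. At 2 hours the values were 17.2, 26.9, 20.1 and 14.99 CPM and at 1 day 23.7, 34.9, 15.1 and 18.2 CPM. The log2 fold changes were 0.38 ± 0.22, 0.22 ± 0.22 and 0.42 ± 0.23, with edgeR's adjusted p 1.00, 0.868 and 0.477. Without the doubted LG04 libraries the values were 0.18 ± 0.25 at 2 hours and 0.29 ± 0.26 at 1 day. At 1 day 2 animals were higher than before and 2 lower. Type I interferon-stimulated genes, a group to which TNFSF10 is known to belong, summed to 351 to 994 CPM before and 311 to 511 CPM at 1 day. Against pre-treatment 10 of the 13 tested were above 0 by the fit at 30 minutes (median log2 fold change 0.15). At 2 hours 11 were (0.40) and at 1 day 1 was (-0.55), with 0 called by edgeR at each time. From 2 hours to 1 day all 13 were below 0 (median -1.03), and edgeR called 3 (beside 0.104% of all genes). TNFSF10 had 0.20 ± 0.23 in that comparison (0.12 ± 0.27 without the doubted LG04 libraries). The part of these genes in the values of TNFSF10 was not tested. TNFSF12 (TWEAK), counted with the uncertainty above, ranged from 4.35 to 18.99 CPM.

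TRAIL acts through 2 receptors with a death domain, TNFRSF10A and TNFRSF10B, and is bound by the decoys TNFRSF10C and TNFRSF10D. TNFRSF10B (DR5, Entrez gene 8795) measured 7.88, 3.99, 4.86 and 6.10 CPM before and 11.4, 8.71, 5.53 and 8.11 CPM at 30 minutes. It measured 9.34, 6.87, 5.20 and 16.99 CPM at 2 hours and 3.94, 5.74, 5.80 and 5.14 CPM at 1 day. Each animal was higher at both 30 minutes and 2 hours than before, LG15 at 2 hours was the highest library, and the groups overlapped. Log2 fold changes were 0.58 ± 0.30 at 30 minutes, 0.67 ± 0.31 at 2 hours (edgeR's unadjusted p 0.0471, adjusted p 0.67) and -0.05 ± 0.33 at 1 day. From 2 hours to 1 day the value was -0.72 ± 0.33, lower in 3 animals and higher in LG12.

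With plain library totals TNFRSF10B was higher in 3 animals at both early times, and with globin genes left out in 4 at 30 minutes and 3 at 2 hours. Its log2 fold change without the doubted LG04 libraries was 0.81 ± 0.33 at 2 hours, 0.18 ± 0.35 at 1 day against pre-treatment and -0.63 ± 0.36 from 2 hours to 1 day. Leaving out 1 animal at a time gave 0.37 to 0.83 at 2 hours and -0.93 to -0.36 from 2 hours to 1 day.

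The other death receptor of TRAIL, TNFRSF10A (DR4), measured 13.6, 8.92, 20.4 and 14.1 CPM before and 18.4, 12.9, 12.3 and 17.9 CPM at 30 minutes. It measured 9.34, 11.5, 17.5 and 20.5 CPM at 2 hours and 9.86, 11.96, 16.8 and 13.04 CPM at 1 day. The groups overlapped throughout, and the sign of its mean difference at 30 minutes and 2 hours turned between scalings. Its fold changes were 0.04 ± 0.24 at 2 hours and -0.09 ± 0.25 at 1 day, and 0.24 ± 0.24 and 0.05 ± 0.25 without the doubted LG04 libraries.

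The decoy TNFRSF10D measured 28.7, 8.21, 10.5 and 11.1 CPM before and 25.3, 21.4, 8.93 and 24.5 CPM at 30 minutes. It measured 15.4, 23.4, 11.04 and 33.97 CPM at 2 hours and 19.1, 19.6, 13.9 and 12.2 CPM at 1 day. LG04 stood high before the antibody and had lower values at each later time, while LG11 and LG15 had higher ones, and the groups overlapped. At 2 hours the log2 fold change was 0.55 ± 0.37, and 0.93 ± 0.36 without the doubted LG04 libraries. The decoy TNFRSF10C, too low for the test with 109 counts over all libraries, measured 1.34, 0.704, 0 and 0.555 CPM before and 1.69, 1.34, 0 and 3.01 CPM at 30 minutes. It measured 1.81, 1.93, 0.649 and 7.99 CPM at 2 hours and 2.63, 0.598, 0 and 1.58 CPM at 1 day. At 2 hours it was higher than before in all 4 animals with TMM (beside 8.06% of the tested genes) and with globin genes left out. With plain library totals 3 animals were higher and LG04 was lower, with 1.26 CPM before and 0.83 CPM at 2 hours. The value of LG12 at 2 hours stood for 3 counts, so the shared direction rests in part on very few counts.

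Of the TNF receptors, TNFRSF1B (Entrez gene 7133) measured 266, 445, 114 and 171 CPM before and 277, 373, 68.4 and 265 CPM at 30 minutes. It measured 423, 397, 161 and 289 CPM at 2 hours and 120.2, 397, 158 and 147 CPM at 1 day. At 2 hours 3 animals were above their starting value and LG11 below, and from 2 hours to 1 day all 4 were lower, in LG11 by under 1 CPM. The groups overlapped in both comparisons. Log2 fold changes were -0.02 ± 0.31, 0.45 ± 0.31 and -0.18 ± 0.31 at the 3 times, and -0.64 ± 0.31 from 2 hours to 1 day (edgeR's adjusted p 0.428). They were, without the doubted LG04 libraries, 0.37 ± 0.28 at 2 hours, 0.07 ± 0.29 at 1 day and -0.31 ± 0.30 from 2 hours to 1 day, so the sign at 1 day turned.

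TNFRSF1A (Entrez gene 7132) measured 22.8, 42.6, 15.5 and 19.1 CPM before and 26.4, 42.2, 8.93 and 28.3 CPM at 30 minutes. It measured 42.2, 45.1, 14.7 and 35.97 CPM at 2 hours and 26.3, 75.1, 22.1 and 17.8 CPM at 1 day. From 30 minutes to 2 hours each animal was higher, on each of the 3 scalings, and LG11 at 1 day stood far above the other libraries. The groups overlapped. Log2 fold changes were 0.47 ± 0.27 at 2 hours and 0.43 ± 0.28 at 1 day against pre-treatment, with edgeR's adjusted p 0.747 and 0.591, and 0.33 ± 0.30 and 0.51 ± 0.31 without the doubted LG04 libraries.

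Among the remaining death-domain receptors, TNFRSF21 (Entrez gene 27242) measured 27.5, 127, 19.6 and 63.1 CPM before and 46.6, 109.8, 8.50 and 84.3 CPM at 30 minutes. It measured 67.8, 106, 21.2 and 91.9 CPM at 2 hours and 49.9, 217, 50.5 and 52.2 CPM at 1 day. At 1 day it was higher than before in 3 animals and lower in LG15, and LG11 stood far above the others. The log2 fold change at 1 day was 0.76 ± 0.37 (edgeR's unadjusted p 0.0635, adjusted p 0.411), and 0.83 ± 0.40 without the doubted LG04 libraries. The groups overlapped.

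TNFRSF25 (Entrez gene 8718) was high in other animals than TNFRSF21. It measured 26.3, 19.2, 29.9 and 10.5 CPM before and 18.5, 19.4, 22.5 and 24.2 CPM at 30 minutes. It measured 11.7, 8.20, 31.2 and 19.5 CPM at 2 hours and 21.7, 6.58, 28.4 and 28.1 CPM at 1 day. LG12 was highest in 3 of the 4 times and LG11 reached the lowest value, and the groups overlapped. Log2 fold changes were 0.00 ± 0.37, -0.43 ± 0.38 and -0.17 ± 0.39 at the 3 times, and -0.28 ± 0.44 and -0.21 ± 0.45 at the later 2 without the doubted LG04 libraries.

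Of the B-cell receptors of BAFF and APRIL, TNFRSF13C (BAFF receptor, Entrez gene 115650) measured 17.6, 2.93, 12.6 and 4.25 CPM before and 17.04, 5.58, 13.6 and 9.16 CPM at 30 minutes. It measured 5.12, 3.01, 21.2 and 4.50 CPM at 2 hours and 5.91, 3.71, 20.3 and 3.16 CPM at 1 day. LG12 stayed between 12.6 and 21.2 CPM at all times, LG11 stayed at or below 5.58 CPM, and LG04 went from 17.6 CPM before to 5.12 and 5.91 CPM at the last 2 times. Summed B-cell markers (11 of 12 tested, none at 0 in all libraries) were 496, 166, 911 and 374 CPM before and 249, 199, 1001 and 172 CPM at 2 hours. The sum was highest in LG12 and lower in LG04 and LG15 at 2 hours than before. In LG15 the receptor was at 4.25 and 4.50 CPM at these times, and at 4.81 and 4.76 CPM with plain library totals. In that library at 2 hours 3 counts corresponded to 1.59 CPM. The receptor was higher at 2 hours than before in 3 animals with TMM and with globin genes left out, and in 1 with plain library totals. Before the antibody the receptor was highest in LG04, not in LG12. The part of B cells in the receptor's values was not tested. Log2 fold changes of TNFRSF13C were 0.49 ± 0.38, -0.21 ± 0.41 and -0.20 ± 0.41. The sign at the later times turned without the doubted LG04 libraries, with 0.25 ± 0.36 at 2 hours and 0.19 ± 0.37 at 1 day.

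TNFRSF13B (TACI), which binds both BAFF and APRIL, was low. It measured 4.36, 0.939, 4.08 and 0.925 CPM before and 5.43, 1.34, 2.13 and 2.09 CPM at 30 minutes. It measured 1.81, 1.09, 6.06 and 3.50 CPM at 2 hours and 0.657, 0.717, 5.22 and 3.16 CPM at 1 day. All 4 animals were lower at 1 day than at 2 hours on each of the 3 scalings, with a log2 fold change of -0.31 ± 0.58 (-0.29 ± 0.47 without the doubted LG04 libraries) and overlapping groups. Several of these values are near or below those of 3 counts in their library. TNFRSF17 (BCMA), the receptor of plasma cells, summed to 73 counts over the 16 libraries and was not tested.

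Among costimulatory receptors, TNFRSF14 (HVEM, Entrez gene 8764), which binds LIGHT and the inhibitory receptor BTLA, was the only member with a comparison in which the groups did not overlap on TMM-scaled CPM, from 2 hours to 1 day. It measured 16.9, 19.01, 9.13 and 8.51 CPM before and 15.4, 13.4, 6.80 and 11.3 CPM at 30 minutes. It measured 17.5, 9.40, 11.7 and 19.5 CPM at 2 hours and 7.23, 7.29, 8.13 and 8.69 CPM at 1 day. The 4 animals lay between 7.23 and 8.69 CPM at 1 day and all were lower than at 2 hours, when the lowest was 9.40 CPM. The log2 fold change from 2 hours to 1 day was -0.85 ± 0.32 (edgeR's unadjusted p 0.0186, adjusted p 0.315). Against pre-treatment it was -0.75 ± 0.31 at 1 day (adjusted p 0.29), lower in 3 animals and slightly higher in LG15. With plain library totals and with globin genes left out it was lower in all 4. With globin genes left out the groups also did not overlap (means of 8.53 CPM at 1 day and 16.3 CPM before). The shares of all genes on these scalings were not counted.

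TNFRSF14 was lower at 1 day than at 2 hours in all 4 animals on each scaling, but with plain library totals the groups overlapped. Without the doubted LG04 libraries the log2 fold change was -0.75 ± 0.38 from 2 hours to 1 day and -0.62 ± 0.36 from before to 1 day. Leaving out 1 animal at a time gave -0.92 to -0.74 and -0.97 to -0.42. Platelet markers were higher at 1 day in each animal, with 8 of 9 tested, GP1BB at 0 and a summed level of 5719, 271, 170.4 and 4887 CPM at 2 hours and 30743, 705, 961 and 25205 CPM at 1 day. Neutrophil markers, 8 of 8 tested and none at 0, summed to 901, 649.5, 122 and 2183 CPM and 245, 382, 159 and 253 CPM at these times. The part of either in the value of TNFRSF14 was not tested.

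TNFRSF9 (4-1BB) stayed low, with 1.84, 2.46, 1.94 and 3.33 CPM before and 0.936, 2.68, 2.13 and 2.49 CPM at 30 minutes. It measured 3.92, 1.45, 1.08 and 2.50 CPM at 2 hours and 2.63, 0.717, 3.48 and 1.19 CPM at 1 day, and neither animals nor times accounted for over 6% of its variance. TNFRSF8 (CD30), the receptor of TNFSF8, ranged from 0.555 to 7.83 CPM and was higher at 2 hours than at 30 minutes in each animal, with a log2 fold change of 0.94 ± 0.56 (edgeR's adjusted p 1.00), and 0.62 ± 0.66 without the doubted LG04 libraries. The TNFRSF8 value of LG12 at 30 minutes stood for fewer than 3 counts. TNFRSF19 (TROY) ranged from 0 to 4.70 CPM. OX40 and GITR, the other costimulatory receptors, were among the members with too few counts.

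Other genes of the pathway were followed in 7 lists with 79 genes, of which 67 had enough counts. Among them 0 passed at 30 minutes and 0 at 2 hours against pre-treatment, and 2 fell at 1 day, beside 0.225% of all genes. Both belong to the feedback inhibitors of NF-kB. TNFAIP3 (A20), an enzyme that ends signalling from TNF receptors, had 490.3 ± 76.9 CPM (mean ± SD, n = 4) before, 395 ± 68.5 CPM at 30 minutes, 249 ± 32.8 CPM at 2 hours and 156 ± 32.2 CPM at 1 day. Its log2 fold change at 1 day was -1.66 ± 0.20 (edgeR's adjusted p 0.00969). NFKBIA (IkB alpha), which holds NF-kB in the cytoplasm, had 308 ± 34.9 CPM before and 159 ± 22.9 CPM at 1 day, with a log2 fold change of -0.97 ± 0.15 (adjusted p 0.0207).

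Both calls at 1 day were lost when LG04, LG11 or LG12 was left out, when the 4 shallowest libraries were, and without the doubted LG04 libraries, where the log2 fold changes were -1.73 and -1.01 with adjusted p of 0.0521 and 0.0865. In the list of NF-kB subunits and inhibitors, all 11 tested genes had a fitted value below 0 at 1 day, with a median of -0.53, beside 0.00 over all genes. REL, an NF-kB subunit, had -0.55 ± 0.13 (adjusted p 0.0925).

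Of 15 superfamily genes with other symbols, 9 were tested and 0 passed in any comparison with pre-treatment. TNF, LTA and LTB were listed at 0 counts and 0 FPKM in all 16 libraries, so the ligands of TNFRSF1A and TNFRSF1B could not be followed. Whether these 3 were expressed cannot be read from the tables. FASLG, the ligand of Fas, had -0.91 ± 0.24 at 30 minutes, and EDAR, the ectodysplasin receptor, -0.72 ± 0.20 at 2 hours, with edgeR's adjusted p 1.00 and 0.343.

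Among the adaptors below the receptors, the 11 TRAF genes and partners had 0 calls at each time against pre-treatment, with medians of -0.02, -0.10 and 0.05. The 9 tested genes of the death-domain complex had 0 calls, with medians of -0.12, 0.19 and 0.10. MLKL, the effector of necroptosis, had 0.41 ± 0.15 at 30 minutes and 0.61 ± 0.15 at 2 hours (adjusted p 1.00 and 0.247). The 19 tested ubiquitin ligases and kinases had 0 calls, with medians of 0.04, -0.07 and 0.04. NFKBIE, another inhibitor of NF-kB, had -0.69 ± 0.27 at 30 minutes (adjusted p 1.00). The 3 tested proteases that shed ligands and receptors had 0 calls, with medians of 0.08, 0.33 and 0.21.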

How the data were processed

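Total RNA of thawed mononuclear cells was depleted of ribosomal RNA and sequenced from stranded libraries, per the labels' protocols. The deposited counts are whole numbers per gene, not normalized. Tools listed in the submitters' processing notes are STAR and HTSeq, besides FastQC, Trimmomatic, edgeR and DESeq, with no versions. They list the human builds hg19 and GRCh37, so macaque reads were counted on human genes and diverged genes can be undercounted. Deposited FPKM values come from the authors, and neither their program nor the strand setting of the counting is stated in the sources used here.

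Tables per animal gave the counts. Entries of a symbol were summed (24369 entries, 766 symbols with more than 1, none of them a member). Of 24 series-wide count columns 23 equalled these tables. Genes were tested with edgeR 4.0.16 (quasi-likelihood F test, TMM, filterByExpr) in R 4.3.3, in 1 fit of 16 libraries on time and animal, leaving 9 residual degrees of freedom, and p-values adjusted by Benjamini and Hochberg over 11545 genes at 0.05. SE is the unshrunken log2 fold change divided by the square root of F, while the printed fold changes are edgeR's shrunken ones. The animal term rests on the design: libraries of an animal deviated together (median correlation 0.563, 23 of 24 pairs above 0.1). The lowest was 0.0551, for LG04 between pre-treatment and 1 day. LG04 at 1 day correlated 0.437 with LG04 at 2 hours and 0.521 with LG15 at 1 day. Whether its label names the right animal was not tested. The smallest chi-square per gene between 2 libraries was 5.15, so none was a copy of another. The fit was tested on simulated data. Depth limits precision as given with the values, for counting error only.

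Named members were those with the 4 smallest p per comparison with pre-treatment and over the 4 times, the 4 receptors and 4 ligands highest by FPKM, and well-known immune members. Other pathway genes were named when called or among the 3 smallest p per comparison. Members and lists were chosen with earlier results of these data known. Marker lists whose fold changes are not given above gave, as median log2 fold changes at 30 minutes, 2 hours and 1 day, 0.15, 0.03 and 0.27 for plasma cells (7 of 8 in the tables), 0.42, 1.01 and 0.56 for dendritic cells (4 of 8 tested) and 0.84, 0.88 and 1.31 for red cells, and TNF-alpha-induced proteins gave 0.04, -0.01 and 0.27. Alternatives were DESeq2 1.42.0, other size factors, no filter, no animal term, no globin genes, other scalings of the levels, and leaving out libraries. Python 3.11.15 with pandas 2.3.3 was used. Sequences were not analysed here.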

Additional observations from a re-analysis of the deposited data

Results flagged for a closer look

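In 8 of 64 groups of 4 libraries (16 named members at 4 times), the highest library stood apart from the other 3 by a larger part of the group's range than Dixon's critical value. The usual rate of about 1 group in 20 holds for independent groups of normally distributed values. These groups were untransformed CPM and shared their libraries, so 8 of 64 is not read as an excess. All 8 were high values, and 5 of them were LG11. At 1 day LG11 had 75.1 CPM of TNFRSF1A (others 17.8 to 26.3), 397 CPM of TNFRSF1B (others 120.2 to 158) and 217 CPM of TNFRSF21 (others 49.9 to 52.2). TNFSF13B in LG11 was at 88.1 CPM before the antibody (others 15.5 to 27.7) and at 129.8 CPM at 1 day (others 15.8 to 27.9). The summed monocyte markers of LG11 at 1 day were at 7878 CPM, with 1129 to 1375 CPM in the other animals, and their part was not tested.

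TNFRSF13C stood high in LG12 at 2 hours with 21.2 CPM (others 3.01 to 5.12) and at 1 day with 20.3 CPM (others 3.16 to 5.91). LG12 also had the highest summed B-cell markers at those times, 1001 and 1194 CPM, whose part was not tested. TNFRSF10D stood high in LG04 before the antibody, with 28.7 CPM against 8.22 to 11.1 CPM.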

How the results depend on the processing

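For the members, 15 fold changes were chosen by small unadjusted p in these same libraries, so they were less likely to turn than the rest. Under 12 alternatives they gave 180 values, which all kept their direction and none passed the threshold. Fold changes outside these 15 did turn without the doubted LG04 libraries, such as TNFRSF10B at 1 day (-0.05 to 0.18) and TNFRSF13C at 2 hours (-0.21 to 0.25). In any of the 6 tests under any alternative 0 of 20 members was called (19 without LG11, where TNFRSF19 had too few counts). The lowest adjusted p was 0.175. The fold change of TNFSF8 ranged from 0.32 to 0.52 at 30 minutes and 0.22 to 0.48 at 1 day (adjusted p 0.175 to 0.895), that of TNFSF13B from 0.79 to 1.13 at 2 hours (adjusted p 0.408 to 1.00), and that of TNFRSF14 from -0.92 to -0.54 between 2 hours and 1 day (adjusted p 0.219 to 0.999). On other scalings of CPM, 13 of 96 directions of a time mean against pre-treatment turned, mostly at 30 minutes, and 3 of 128 mean levels moved by more than 1 SD. The median of the members from 30 minutes to 2 hours was 0.29 in the reported fit and -0.05 without the 4 shallowest libraries, so its sign turned.

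Counts over all genes depended on the setting, in the order 30 minutes, 2 hours and 1 day against pre-treatment, 2 hours against 30 minutes, 1 day against 2 hours, and all times. They were 0, 0, 26, 0, 12 and 12 in the reported fit. DESeq2 called 14, 79, 400, 3, 121 and 443. No filter gave 0, 7, 70, 0, 17 and 87. Without the replicate block of the animal they were 0, 0, 3, 0, 0 and 2, and the block changed no call of a member. Without globin genes the test over all times gave 25. Leaving out 1 animal gave 1 (LG04, LG12), 2 (LG11) and 67 (LG15) at 1 day against pre-treatment, 0 to 2 at 1 day against 2 hours and 0 to 2 over all times. Leaving out LG04 at 1 day gave 2 at 2 hours, 6 at 1 day against 2 hours and 2 over all times, and the 4 shallowest libraries 0 throughout. Leaving out both doubted LG04 libraries, an alternative added after seeing the data, gave 1 at 1 day, 9 at 1 day against 2 hours and 1 over all times. Of 108 pathway values 12 lost the threshold (TNFAIP3 and NFKBIA at 1 day, also NFKBIA without the block, at -0.96 with adjusted p 0.114), 2 gained it (DESeq2, REL at 1 day with -0.51 and TNFAIP3 at 2 hours with -0.98) and 0 turned. The causes were not tested.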
